A study of Mus musculus with 15 samples.

Results

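Double-knockout (dKO) mice were compared with control mice by RNA sequencing of inguinal fat, a white depot under the skin, across all expressed genes. The dKO mice carried Adipoq-Cre, a recombinase driven by the adiponectin gene's promoter and therefore active in adipocytes, together with floxed alleles of LKB1 and of HDAC4. The controls, labelled WT, carried the floxed LKB1 alleles and no Cre in their label. All mice were C57BL/6 and 8 weeks old. By genotype label, 5 dKO and 5 WT libraries, 10 of the 15 in the series, were taken, and the 5 libraries of mice with floxed LKB1 and Adipoq-Cre alone were left out. The labels of the controls name neither Cre nor floxed HDAC4, so the effects of Cre, of LKB1 and of HDAC4 cannot be told apart in this comparison. Whole tissue was sequenced, so fewer cells of a type and less RNA per cell cannot be told apart either.

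LKB1, encoded by Stk11, is a kinase that activates AMPK and a family of related kinases, among them the salt-inducible kinases (SIKs). SIKs phosphorylate class IIa histone deacetylases such as HDAC4 and the CRTC coactivators of CREB, which keeps these proteins in the cytoplasm, and loss of that phosphorylation lets them enter the nucleus. In fat, cAMP signalling through CREB and its partners switches on thermogenic genes such as Ucp1 in beige adipocytes, the heat-producing cells that can appear in subcutaneous depots.

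Values are CPM, read counts per gene scaled to the TMM library size, and genes were tested with edgeR's quasi-likelihood test and called at a Benjamini-Hochberg adjusted p under 0.05. Total counts were 1564004 to 12089891 per library in dKO and 2181109 to 4062909 in WT, and the mitochondrial ribosomal RNAs took 33.5 to 46.6% of them in dKO and 35.4 to 46.3% in WT. By exact two-sided permutation, none of 4 library measures differed detectably between the groups (lowest p = 0.310, n = 5 each). Adipocyte markers were present throughout, with 7 of 7 tested, 0 called and a summed level of 4651 to 7886 CPM in dKO and 4243 to 6650 CPM in WT. The dKO libraries had barcode numbers 12 to 16 and the WT libraries numbers 2 and 5 to 8, so a barcode effect cannot be told apart from genotype.

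Within dKO, the libraries labelled 1753 and 1753-2 had a profile of their own. They were also the 2 deepest libraries, at 8305796 and 12089891 total counts against 1564004 to 4388048 in the other 8. The part of depth in their profile was not tested. Along the first principal component (42.3% of the variance) they lay at 59.4 and 58.8, the other 3 dKO libraries between -25.1 and -5.95 and the WT libraries between -38.4 and -1.54. Both lay above all other 8 libraries in 2267 of 11847 genes (19.1%) and below them in 2321 (19.6%). Beyond counting error, the 2 libraries differed from each other by a coefficient of variation of 4.40%, whereas the other dKO libraries differed among themselves by 9.39 to 14% and WT libraries by 7.95 to 15.8%. Genes with deep counts numbered 4846 for these 2 libraries, 731 to 1734 for pairs of the other dKO libraries and 1332 to 2032 for WT pairs. The values may therefore not rest on the same genes. Their counts differed by more than sampling noise on average (mean chi-square of 6.09 per gene, median 0.965), which does not tell 2 mice from 2 preparations of 1 mouse. The labels do not say which they are. They were counted as 2 libraries, and the main results are given with and without them.

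**Figure D1:**
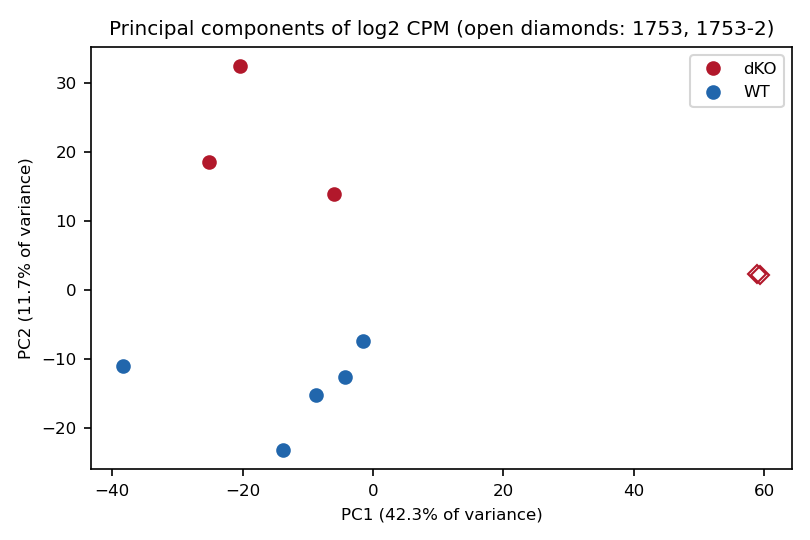
Scores of the 5 dKO (red) and 5 WT (blue) libraries on the first 2 principal components of log2 CPM over all tested genes; open diamonds are 1753 and 1753-2. The 2 open diamonds lie at 59.4 and 58.8 on the first component, and the other 8 libraries lie below 0.

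Few genes separated dKO from WT fat. With all 10 libraries 32 of 11847 tested genes were called (0.27%), 25 higher (0.211%) and 7 lower (0.0591%) in dKO. An unadjusted edgeR p under 0.05 was found for 1339, 755 higher (6.37%) and 584 lower (4.93%). All 32 had no overlap between the groups, as had 249 genes in all (2.1%). Without 1753 and 1753-2, 34 of 12333 genes were called (0.276%), 23 higher (0.186%) and 11 lower (0.0892%). The 2 sets shared 21 genes, all with the same direction, and the 11 genes called only with all 10 libraries also kept their direction. With 1753 and 1753-2 summed as 1 sample, 20 of the 32 genes passed. The 12 that did not were Acadl, Aldh3b2, Bckdhb, Clstn3, Gm20419, Gm962, Gpx3, Mcm6, Nnat, Plin5, Slc25a25 and Smoc2 (adjusted p of 0.0511 to 0.132). The number of calls moved with single libraries. It was 55 without dKO replicate 1, 11 without dKO replicate 2, 38 without dKO replicate 3, and 18 and 17 without 1753 or 1753-2. It was 20, 15, 14 and 18 without WT replicates 1, 2, 3 and 4, and 5 without WT replicate 5. DESeq2 called 123 genes, all 32 among them, and a fit of all 15 libraries called 75, again with all 32. Voom called 31 genes and a fit with no expression filter 58, each with 28 of the 32. Ucp1, Ctse, Nnat and Gm20419 did not pass with no filter.

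**Figure D2:**
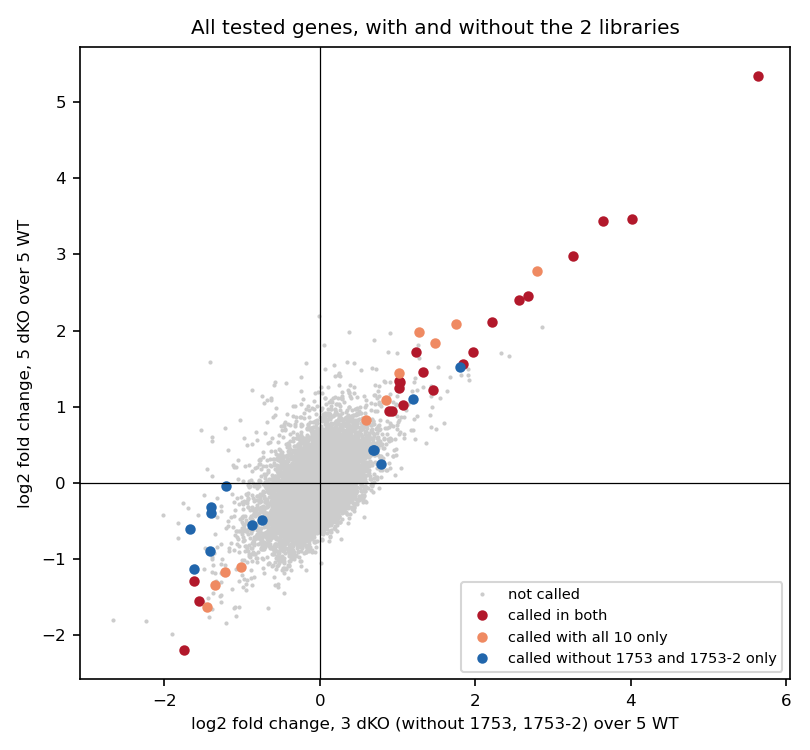
Log2 fold change of dKO over WT for each tested gene with all 10 libraries (vertical axis) against that without 1753 and 1753-2 (horizontal axis), coloured by which of the 2 fits called the gene. The 21 genes called in both lie along the diagonal, from Dio2 at the upper right to Nnat at the lower left.

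Stk11 (mm9 chromosome 10, 79578548 to 79593427) was at 23.3, 19.9, 22.1, 16.7 and 16.9 CPM in dKO and at 23.2, 38.2, 34.8, 26.1 and 30.2 CPM in WT. It was lower in dKO by means, with 1 WT library inside the dKO range, and the difference did not pass (log2 fold change -0.64, SE 0.18; adjusted p = 0.229 by edgeR). Without the 1753 libraries the values were -0.49 and 0.555. Hdac4 (chromosome 1, 93829334 to 94044970) was at 11, 11.1, 11.4, 9.67 and 9.56 CPM in dKO and at 11.7, 16.3, 12.6, 8.02 and 14.3 CPM in WT, with overlap (log2 fold change -0.28, SE 0.20; adjusted p = 0.613 by edgeR). Counts per gene do not resolve deleted exons, and the tissue holds cells without Adipoq-Cre, so neither gene checks the genotype labels.

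Dio2 had the largest rise in dKO fat, and Ucp1 and other thermogenic genes were among the called genes. Dio2 (chromosome 12, 91962994 to 91976878), the deiodinase that makes active thyroid hormone inside cells, was at 141, 151, 72.7, 64.2 and 70.2 CPM in dKO and at 5.45, 0.626, 2.16, 1.6 and 1.92 CPM in WT. Every dKO library was far above every WT library, 40.6-fold by the fitted change (log2 fold change 5.34, SE 0.43; adjusted p = 0.000156 by edgeR). The change was 49.5-fold without the 1753 libraries (5.63, SE 0.39, adjusted p = 0.000127). Dio2 passed in each fit that left out 1 library. Ucp1 (chromosome 8, 85814247 to 85822355), the uncoupling protein that lets brown and beige fat mitochondria make heat, was at 131, 111, 64.5, 103 and 92.9 CPM in dKO and at 24.3, 4.70, 9.85, 7.22 and 26.1 CPM in WT. It rose 6.85-fold without overlap (log2 fold change 2.78, SE 0.39; adjusted p = 0.0130 by edgeR). The 1753 libraries were not apart from the other dKO mice in Ucp1. Without them the fold was 6.95 but the SE was 0.54 and the gene did not pass (adjusted p = 0.180).

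The thermogenic list had 22 tested genes, of which 5 were called higher and 0 lower, against 0.211% and 0.0591% of all genes, and 20 of 22 fold changes were positive (median log2 fold change 0.62, against -0.02 over all tested genes). The other 3 called were Otop1, Ppargc1a and Plin5. In 10 of the 22 tested genes both 1753 libraries lay above the other 8, against 19.1% of all genes. In 1 both lay below them, against 19.6%. Otop1, which encodes a proton channel, was at 30.2, 31.5, 23.4, 57.1 and 54.4 CPM in dKO and at 13.6, 11.6, 11.1, 9.22 and 14.8 CPM in WT (3.30-fold, edgeR adjusted p = 0.0146; 2.35-fold and 0.00895 without the 1753 libraries, which were its 2 highest). It did not pass without WT replicate 3 or 5 (adjusted p up to 0.0512). Ppargc1a, a coactivator that drives mitochondrial biogenesis, was at 43.2, 67.2, 36.7, 71.5 and 69.7 CPM in dKO and at 19.6, 21.3, 26.8, 30.9 and 24.7 CPM in WT (2.37-fold, adjusted p = 0.0234; 2.03-fold and 0.0320 without the 1753 libraries). Among the fits that left out 1 library, Ppargc1a passed in the 3 without dKO replicate 1, dKO replicate 3 or WT replicate 4 (adjusted p up to 0.0814 in the others).

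Plin5, a coat protein of lipid droplets that contact mitochondria, averaged 8.73 ± 2.38 CPM in dKO and 2.44 ± 1.14 CPM in WT (SD, n = 5 each; 3.58-fold, edgeR adjusted p = 0.0361). It did not pass without the 1753 libraries (adjusted p = 0.183) and passed in 2 of the 10 fits that left out 1 library, those without dKO replicate 1 or 3. Without the 1753 libraries the thermogenic list had 3 genes called among 23 tested, Dio2, Ppargc1a and Otop1, against 0.186% of all genes. Its median was then 0.37, with 18 fold changes positive and 5 negative. By unadjusted edgeR p under 0.05, 10 were higher and 1 lower, against 2.95% and 4.43% of all genes. Cox8b, a tissue-specific cytochrome c oxidase subunit, had values of 24.9, 23.8, 25.3, 50.8 and 46.1 CPM in dKO and 15, 11.6, 10.8, 10.8 and 20.3 CPM in WT, without overlap, but did not pass (log2 fold change 1.34, SE 0.27; adjusted p = 0.0706 by edgeR). Prdm16, a regulator of brown fat fate, did not pass either (18.9 ± 3.63 CPM in dKO and 12 ± 5.33 CPM in WT, adjusted p = 0.376). Cidea, a lipid droplet protein used as a brown fat marker, did not go with Ucp1 and Dio2: it was at 7.64 ± 3.23 CPM in dKO and 10.7 ± 7.49 CPM in WT (adjusted p = 0.729). Too few reads fell on Elovl3, which lengthens fatty acids in brown fat, for it to be tested: 0, 0, 0, 4 and 9 counts in dKO and 1, 0, 0, 0 and 1 in WT.

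The promoters of the 4 thermogenic genes with the lowest p-values are shown because all 4 were called higher and SIKs act on CREB coactivators. Any part of CREB in these rises was not tested. Each line gives the 250 bases before the RefSeq start site (GRCm38.p6), 5′ to 3′ on the gene's strand, with capitals marking the letters of the cAMP response element, TGACGTCA, or of its core TGACG on either strand. The full element contains the core on both strands. Dio2 lies on the minus strand at chr12:90739039-90739288, Ucp1 on the plus strand at chr8:83290098-83290347, Ppargc1a on the minus strand at chr5:51567726-51567975 and Otop1 on the plus strand at chr5:38277154-38277403.
Dio2: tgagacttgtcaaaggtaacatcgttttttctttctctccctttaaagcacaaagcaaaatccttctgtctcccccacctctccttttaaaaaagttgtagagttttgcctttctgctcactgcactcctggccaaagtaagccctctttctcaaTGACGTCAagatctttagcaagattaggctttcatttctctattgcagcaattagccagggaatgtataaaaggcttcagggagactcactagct
Ucp1: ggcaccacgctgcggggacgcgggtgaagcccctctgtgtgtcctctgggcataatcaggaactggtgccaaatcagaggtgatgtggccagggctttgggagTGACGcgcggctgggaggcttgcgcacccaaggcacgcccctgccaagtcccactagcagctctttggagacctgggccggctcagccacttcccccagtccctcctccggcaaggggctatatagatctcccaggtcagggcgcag
Ppargc1a: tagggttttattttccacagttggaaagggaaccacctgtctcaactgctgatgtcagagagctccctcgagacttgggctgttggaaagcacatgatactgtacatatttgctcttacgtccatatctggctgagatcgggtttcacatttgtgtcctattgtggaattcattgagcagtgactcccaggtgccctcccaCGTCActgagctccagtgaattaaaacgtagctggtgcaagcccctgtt
Otop1: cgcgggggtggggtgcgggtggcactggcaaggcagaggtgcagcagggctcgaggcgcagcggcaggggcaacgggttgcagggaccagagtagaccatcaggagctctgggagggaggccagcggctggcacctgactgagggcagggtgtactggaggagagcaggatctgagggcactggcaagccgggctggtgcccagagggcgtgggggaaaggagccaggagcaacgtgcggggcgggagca
The Dio2 window holds the full element, whose first base is at position -95 from the start site. The Ucp1 window holds 1 core at -147 and the Ppargc1a window 1 at -49, and the Otop1 window holds none. Among all 32851 promoter windows of this length 1.55% held the full element and 17.8% a core. Of the 32 called genes 21 matched a promoter, and 2 of these 21 held the full element (Dio2 and Slc25a25) and 5 a core. The shares over all windows count each window, whereas a called gene counts once, by any window of its own. The 2 are therefore not like for like. The MEF2 motif, the site of the factors that class IIa deacetylases bind, was in 2.92% of all windows and in 0 of the 21. At so low a share, 21 genes are too few to tell a lack of the motif from its usual rate. A match of letters is a description and no measure of binding.

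**Figure D3:**
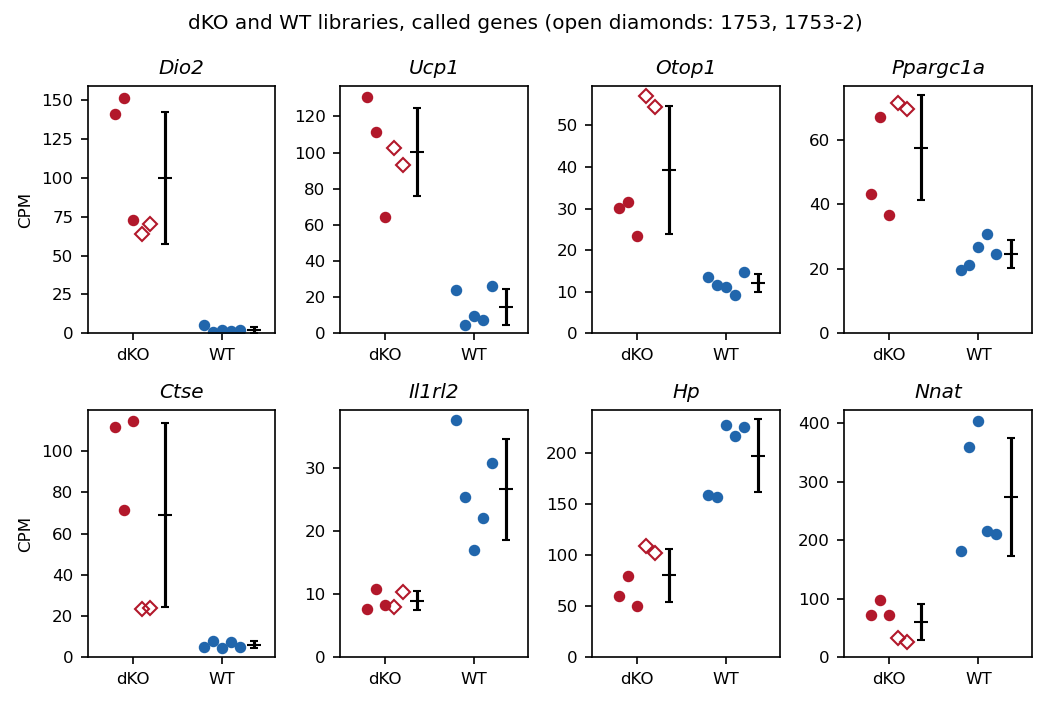
CPM of 8 called genes in each of the 5 dKO (red) and 5 WT (blue) libraries; open diamonds are 1753 and 1753-2, and the bar beside each group is its mean ± SD (n = 5). In all 8 genes the dKO and WT libraries do not overlap, and in Ctse the 2 open diamonds, at 23.4 and 23.9 CPM, lie between the other dKO libraries and WT.

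Ctse (chromosome 1, 133534883 to 133572080), the aspartic protease cathepsin E, had the largest rise after Dio2 among called genes that are not predicted features. It was at 112, 71.6, 114, 23.4 and 23.9 CPM in dKO and at 5.18, 8.14, 4.62, 7.62 and 5.22 CPM in WT. The groups did not overlap (11-fold, edgeR log2 fold change 3.46, SE 0.49; adjusted p = 0.0130). The 1753 libraries were the lowest of dKO. Without them the change was 16.1-fold and its SE was 0.21 (adjusted p = 1.16e-09), and with all but WT replicate 5 it did not pass (0.0636). Of the 23 tested lysosome and cathepsin genes, Ctse was the 1 called, against 0.211% of all genes called higher. Of the 23 fold changes 19 were negative (median -0.39, and -0.45 without the 1753 libraries). By unadjusted edgeR p under 0.05, 1 was higher and 8 were lower, against 6.37% and 4.93% of all genes. Leaving out the 1753 libraries, 1 was higher and 9 were lower, against 2.95% and 4.43%.

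The other rises that were called both with and without the 1753 libraries were between 1.92-fold and 5.46-fold among named genes. Zfp949, a zinc finger gene, was at 38.9, 35.4, 25.9, 23.1 and 17.5 CPM in dKO and at 8.72, 9.40, 11.7, 9.62 and 7.69 CPM in WT (2.96-fold, edgeR adjusted p = 0.0150). Gadd45g, a stress-inducible growth arrest gene, was at 25.9, 16.8, 20.9, 14.4 and 13.1 CPM in dKO and at 3.54, 5.33, 8.01, 7.22 and 3.30 CPM in WT (3.30-fold, adjusted p = 0.0234). In both genes the 1753 libraries were the lowest of dKO and still above every WT library. Zfp949 did not pass without dKO replicate 2 or WT replicate 5 (adjusted p up to 0.0682). Gadd45g did not pass without dKO replicate 2 or WT replicates 1, 2 or 5 (up to 0.0814). Hacl1, a peroxisomal lyase that shortens hydroxy fatty acids, had the reverse order within dKO, with 30.6, 28.2 and 32.9 CPM in the first 3 dKO mice, 44.7 and 48.3 CPM in 1753 and 1753-2 and 12, 13.5, 16.6, 16.8 and 15.7 CPM in WT (2.51-fold, adjusted p = 0.0130). Its gene overlaps Btd on the other strand, which had 953 counts summed over dKO and 344 over WT, not scaled for depth, so reads of the 2 genes may not be told apart. Hacl1 did not pass without WT replicate 5 (0.0501).

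Pde7b, a phosphodiesterase that degrades cAMP, and Sh3pxd2a, a scaffold of podosomes, had little spread within dKO. Pde7b was at 59.8, 52.2, 49.3, 53.5 and 54.8 CPM in dKO and at 33.5, 27.3, 25.2, 20.5 and 33.8 CPM in WT (1.92-fold, edgeR adjusted p = 0.0234). Sh3pxd2a was at 361, 373, 340, 380 and 398 CPM in dKO and at 186, 139, 253, 205 and 184 CPM in WT (1.92-fold, adjusted p = 0.0234). In both genes the lowest dKO library stood well clear of the highest WT library. Col27a1, a fibrillar collagen, averaged 41.9 ± 11.5 CPM in dKO and 16.8 ± 3.68 CPM in WT (SD, n = 5 each; 2.54-fold, adjusted p = 0.0234). Pde7b did not pass without dKO replicate 2, 1753-2 or WT replicates 2, 3 or 5 (adjusted p up to 0.0732). Sh3pxd2a did not pass without dKO replicate 2, 1753-2 or WT replicates 1, 2, 4 or 5 (up to 0.0814). Col27a1 did not pass without WT replicates 2, 3 or 5 (up to 0.0741).

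Chromosome 1, which carries Hdac4, held 9 of the 32 called genes, 1.24% of its 724 tested genes, against 23 of 11123 tested genes elsewhere (0.207%). Without the 1753 libraries it held 11 of the 34 called genes and all other chromosomes together 23, with 0.276% of all 12333 tested genes called. The called genes lay from -53.54 Mb (Il1rl2) to 93.99 Mb (Lyplal1) of Hdac4, and 4 lay within 5 Mb of it, among 57 genes tested there. These 4 are 1 locus: Ugt1a5 (chromosome 1, 90062587 to 90115572) and the predicted genes Gm15368, Gm15369 and Gm15372, all in the Ugt1a cluster, which encodes enzymes that attach glucuronic acid to bilirubin, hormones and drugs. Ugt1a5 was at 12, 21.7, 18.3, 13 and 10.3 CPM in dKO and at 3.81, 0.940, 0.924, 5.61 and 2.47 CPM in WT (5.46-fold, edgeR adjusted p = 0.0234; 6.40-fold and 0.00722 without the 1753 libraries). The Ugt1a genes share their last exons, so counts may be split among them. Gm15368 lies inside the span of Ugt1a5, and all 3 predicted genes lie inside those of other Ugt1a genes, on the same strand, so these calls may rest on shared reads. Over the 17 features of the cluster with any count, 17 had a higher mean CPM in dKO, 1 of them (Ugt1a1) on a single read, and their sum was 67.4, 99.7, 70.8, 58.5 and 54.8 CPM in dKO and 16.6, 8.77, 17.6, 22.1 and 12.9 CPM in WT. Ugt1a5 did not pass without dKO replicate 2 or WT replicates 1, 2, 3 or 5 (adjusted p up to 0.0912).

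Among the other chromosome 1 genes, Lyplal1, a lysophospholipase-like esterase, rose 2.32-fold (17.9 ± 5.72 CPM in dKO and 7.65 ± 0.476 CPM in WT, SD, n = 5 each, edgeR adjusted p = 0.0475) and 2.75-fold without the 1753 libraries (adjusted p = 0.00722). Among the fits that left out 1 library, it passed in the 2 without dKO replicate 3 or 1753. Of the 28 tested genes of the list of Ugt1a and other genes near Hdac4, Ugt1a5 was the 1 called. EdgeR called 0.211% of all genes higher. The median log2 fold change of the list was 0.06. Whether the alleles around floxed Hdac4 differ between the groups was not tested.

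The falls were fewer. Il1rl2 (chromosome 1, 40381472 to 40422316), an interleukin receptor subunit, was at 7.64, 10.8, 8.22, 7.90 and 10.3 CPM in dKO and at 37.6, 25.4, 16.9, 22.1 and 30.8 CPM in WT, 2.93-fold lower (edgeR log2 fold change -1.55, SE 0.22; adjusted p = 0.0130). The 1753 libraries lay within the range of the other dKO mice, and without them it was 2.94-fold lower (adjusted p = 0.0145). It did not pass without WT replicate 5 (0.0530). Hp (chromosome 8, 112099030 to 112103072), haptoglobin, which binds free haemoglobin and is made by fat as well as liver, was at 60.1, 79.6, 49.97, 110 and 103 CPM in dKO and at 159, 158, 228, 217 and 226 CPM in WT. It was 2.43-fold lower (-1.28, SE 0.21, adjusted p = 0.0234) and 3.09-fold lower without the 1753 libraries (-1.63, SE 0.18, adjusted p = 0.000139). It did not pass without dKO replicate 2 or WT replicates 3, 4 or 5 (up to 0.0956). Nnat, neuronatin, an imprinted membrane protein, was at 72.7, 98.7, 72.7, 33.1 and 25.5 CPM in dKO and at 182, 360, 403, 215 and 210 CPM in WT, 4.59-fold lower (adjusted p = 0.0234) and 3.35-fold lower without the 1753 libraries (0.0341). With these 2 libraries summed it did not pass (0.0511). Nnat lies within the span of Blcap on the opposite strand, and it did not pass without 1753 or WT replicates 2, 3 or 5 (up to 0.0763).

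Gpx3, a secreted glutathione peroxidase, Smoc2, a matrix protein of stromal progenitors, and Mcm6, a subunit of the replication helicase, were called lower with all 10 libraries and not without the 1753 libraries. Gpx3 averaged 122 ± 13.9 CPM in dKO and 274 ± 92.2 CPM in WT (2.24-fold lower, edgeR adjusted p = 0.0361 and 0.107). Smoc2 was at 5.98, 7.49, 8.86, 6.25 and 6.46 CPM in dKO and at 13.1, 13.5, 16.9, 14.8 and 15.7 CPM in WT (2.16-fold lower, adjusted p = 0.0234 and 0.119). Mcm6 averaged 6.46 ± 2.33 CPM in dKO and 16.2 ± 2.48 CPM in WT (2.54-fold lower, adjusted p = 0.0475 and 0.0918). Their log2 fold changes without the 1753 libraries, -1.22, -1.02 and -1.34, were near those with them, -1.16, -1.11 and -1.34. Among the 10 fits that left out 1 library, Gpx3 passed in the 1 without WT replicate 5 and Mcm6 in the 1 without dKO replicate 1. Smoc2 passed in the 4 without dKO replicate 1, dKO replicate 3, WT replicate 1 or WT replicate 2. Pon1, a paraoxonase that protects lipoproteins from oxidation, moved the other way, to 11.1 ± 2.17 CPM in dKO against 2.51 ± 1.46 CPM in WT (4.32-fold higher, adjusted p = 0.0334; 4.65-fold and 0.0241 without the 1753 libraries). It did not pass without dKO replicate 2, 1753, 1753-2 or WT replicates 3, 4 or 5 (up to 0.102).

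Some metabolic genes were called higher only with the 1753 libraries in the fit. Clstn3, a calsyntenin whose locus also gives an adipocyte form in mice, was at 12, 13.2, 13.9, 19.5 and 20.7 CPM in dKO and at 7.90, 1.25, 2.77, 2.81 and 3.85 CPM in WT (4.23-fold, edgeR adjusted p = 0.0283; 3.38-fold and 0.0708 without those libraries). Aldh3b2, an aldehyde dehydrogenase, averaged 21.4 ± 10.7 CPM in dKO and 5.49 ± 2.03 CPM in WT (3.94-fold, adjusted p = 0.0441; 2.42-fold and 0.119 without). Acadl, the long-chain acyl-CoA dehydrogenase of mitochondrial fatty acid oxidation, was at 131, 145, 156, 199 and 204 CPM in dKO and at 94.8, 82.7, 97.0, 96.2 and 103 CPM in WT (1.77-fold, adjusted p = 0.0361; 1.51-fold and 0.0547 without). Bckdhb, a subunit of the branched-chain ketoacid dehydrogenase, averaged 32.6 ± 6.02 CPM in dKO and 15.4 ± 4.06 CPM in WT (2.12-fold, adjusted p = 0.0475; 1.81-fold and 0.134 without). In all 4 genes the 2 highest dKO values were those of 1753 and 1753-2. The other 3 dKO libraries were still above every WT library. Acadl and Aldh3b2 passed in the 2 fits without dKO replicate 1 or 3. Bckdhb passed in the 1 without dKO replicate 1, and Clstn3 in the 3 without dKO replicate 1, dKO replicate 3 or WT replicate 1.

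For whole pathways of mitochondrial fuel use and lipid synthesis, the 1753 libraries set the level of the dKO group. All 61 tested oxidative phosphorylation genes had positive fold changes with all 10 libraries (median log2 fold change 0.58), and 59 of the 61 had both 1753 libraries above the other 8, against 19.1% of all genes. Without them 22 were positive and 39 negative (median -0.07, against -0.01 over all genes). All 19 tricarboxylic acid cycle genes were positive (median 0.70), 19 with the 1753 libraries on top, and the median without them was 0.09. Of 24 fatty acid oxidation genes 23 were positive (median 0.44), and without the 1753 libraries 13 were positive and 11 negative (median 0.01). Single genes rarely passed. EdgeR called 0 oxidative phosphorylation and 0 cycle genes and 1 fatty acid oxidation gene, Acadl. DESeq2 called 2, 2 and 2, against 123 of all 11847 tested genes, and voom 0, 0 and 1, against 31 of all. In the same order 23, 14 and 9 genes were higher at an unadjusted edgeR p under 0.05, as were 6.37% of all tested genes. Without the 1753 libraries 2, 2 and 5 were, against 2.95% of all genes.

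Cs, citrate synthase, the entry enzyme of the cycle, shows the pattern. It was at 296, 328, 269, 745 and 755 CPM in dKO and at 235, 232, 281, 241 and 288 CPM in WT (log2 fold change 0.91, SE 0.29; adjusted p = 0.285 by edgeR; 0.22 and 0.814 without the 1753 libraries). Atp5b, a subunit of the ATP synthase, was at 797, 950, 770, 1907 and 1979 CPM in dKO and at 761, 809, 931, 828 and 955 CPM in WT (0.58, adjusted p = 0.441; -0.03 and 0.991 without). Outside 1753 and 1753-2, the dKO values of Atp5b lay among those of WT.

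Both 1753 libraries were also above the other 8 in 22 of 24 fatty acid synthesis genes and in 15 of 18 cholesterol genes, against 19.1% of all genes. The fatty acid synthase gene Fasn was at 476, 926, 1098, 6271 and 6288 CPM in dKO and at 2005, 672, 1628, 1508 and 2663 CPM in WT, with the 3 dKO libraries other than 1753 and 1753-2 low or within the WT range. The log2 fold change was 0.83 (SE 0.65, edgeR adjusted p = 0.644) with all 10 libraries and -1.03 (SE 0.46, adjusted p = 0.703) without the 1753 libraries. All 24 tested fatty acid synthesis genes had positive fold changes with all libraries (median 0.69), whereas without those libraries 5 were positive and 19 negative (median -0.33). Cholesterol synthesis and uptake genes had the highest median of the 31 lists with tested genes, 1.14, which was -0.07 without the 1753 libraries. Nsdhl, a sterol dehydrogenase, was at 29.2, 25.8, 35.4, 115 and 116 CPM in dKO and at 25.6, 18.2, 28.0, 24.1 and 28.6 CPM in WT. In both lists edgeR and voom called 0 genes and DESeq2 1 each. At an unadjusted edgeR p under 0.05, 7 and 11 genes were higher, against 6.37% of all tested genes. Leaving out the 1753 libraries, 1 and 0 were higher and 4 and 1 lower, against 2.95% and 4.43%. The median of glucose uptake and glycolysis genes was 0.40 with all libraries and -0.06 without the 1753 libraries. Of these 23 genes 0 were called by edgeR or voom and 1 by DESeq2. By unadjusted edgeR p 8 were higher and 1 lower, against 6.37% and 4.93% of all tested genes.

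**Figure D4:**
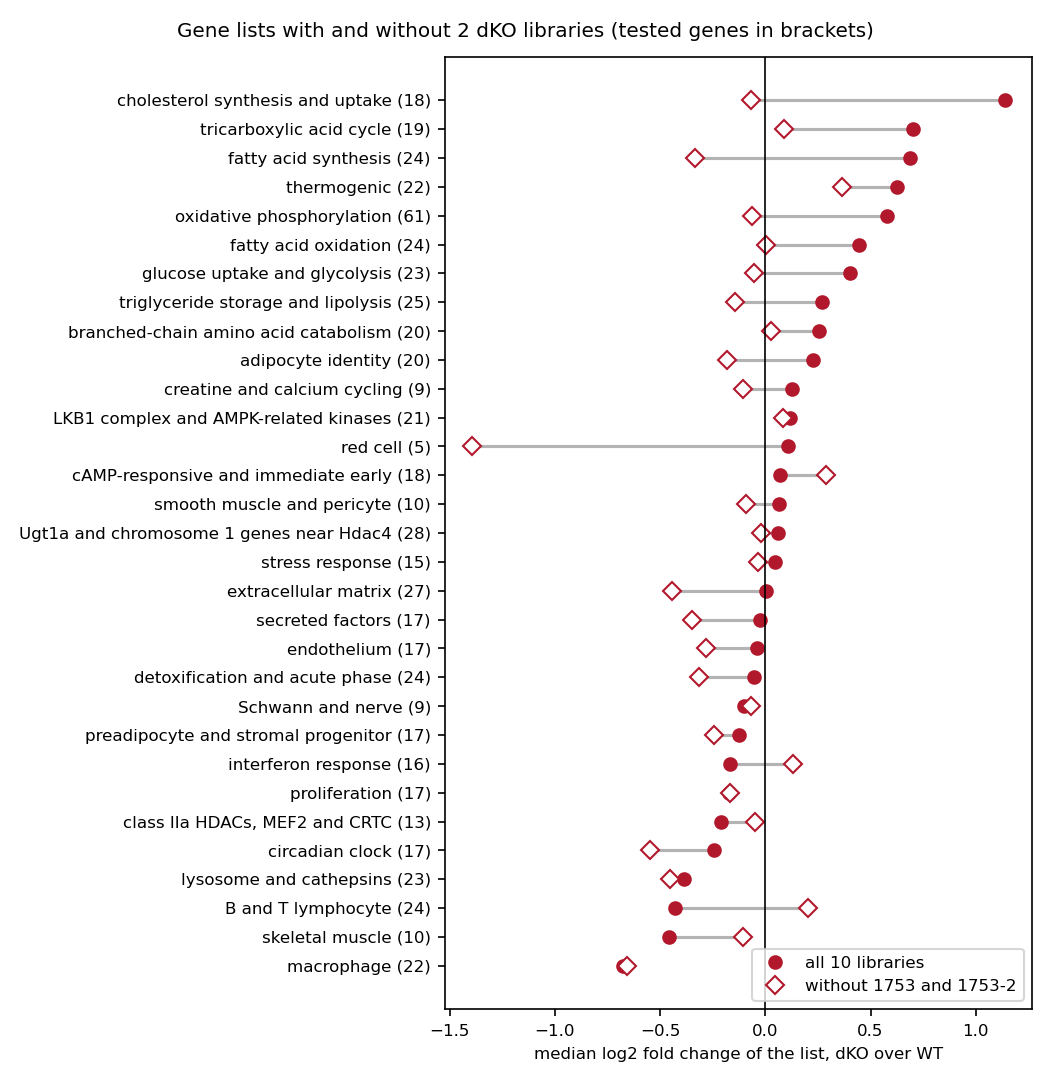
Median log2 fold change of dKO over WT for each gene list with tested genes, with all 10 libraries (filled circles) and without 1753 and 1753-2 (open diamonds); numbers in brackets are tested genes. With all libraries the medians of cholesterol synthesis, the tricarboxylic acid cycle, fatty acid synthesis and oxidative phosphorylation lie between 0.58 and 1.14, and without the 2 libraries between -0.33 and 0.09; those of macrophage genes are -0.68 and -0.66.

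Leaving out 1753 and 1753-2 also brought out 13 genes that the full set did not call, 5 higher and 8 lower in the remaining dKO mice. The fall with the largest change was that of Adora1, the adenosine A1 receptor, which couples to inhibition of cAMP synthesis in adipocytes. It was at 8.30, 25.1 and 14.5 CPM in these 3 dKO mice, at 57.2 and 58.7 CPM in 1753 and 1753-2 and at 48.8, 69.9, 55.7, 41.7 and 44.5 CPM in WT (log2 fold change -1.67, SE 0.29; adjusted p = 0.0285 by edgeR; -0.61 and 0.595 with all 10 libraries). Emp1, an epithelial membrane protein, was at 24.2, 35.9 and 29.1 CPM in the 3 dKO mice, 92.8 and 111 CPM in 1753 and 1753-2 and 59.4 to 122 CPM in WT (-1.40, adjusted p = 0.0175). Bhlhe40, a repressor of the circadian clock, was at 13, 28.4 and 31.6 CPM in the 3 dKO mice, 86.1 and 88.4 CPM in 1753 and 1753-2 and 51.0 to 81.9 CPM in WT (-1.40, adjusted p = 0.0261). In these 3 genes the 1753 libraries lay within or above the WT range.

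Phlda3, a pleckstrin homology protein that restrains Akt signalling, was called lower as well (-1.21, edgeR adjusted p = 0.0319, and -0.04 with all 10 libraries), as were Tmem182 (-1.41, adjusted p = 0.0327), the corneodesmosin gene Cdsn (-1.62, adjusted p = 0.0347), Htra3, a secreted serine protease (-0.87, adjusted p = 0.0227), and Slit3, a secreted ligand of Robo receptors (-0.74, adjusted p = 0.0291). Of the rises, Dusp10, a phosphatase of stress-activated kinases, was at 25.2, 27.9 and 22.8 CPM in the 3 dKO mice, 21.6 and 22.6 CPM in 1753 and 1753-2 and 15, 9.40, 6.16, 13.6 and 11.5 CPM in WT. Its log2 fold change was 1.19 (adjusted p = 0.0347), and 1.10 (0.0617) with all 10 libraries. D17H6S56E-5 was higher without the 1753 libraries (0.78, adjusted p = 0.0320) and was lowest in them, at 26.9 and 24.8 CPM.

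**Figure D5:**
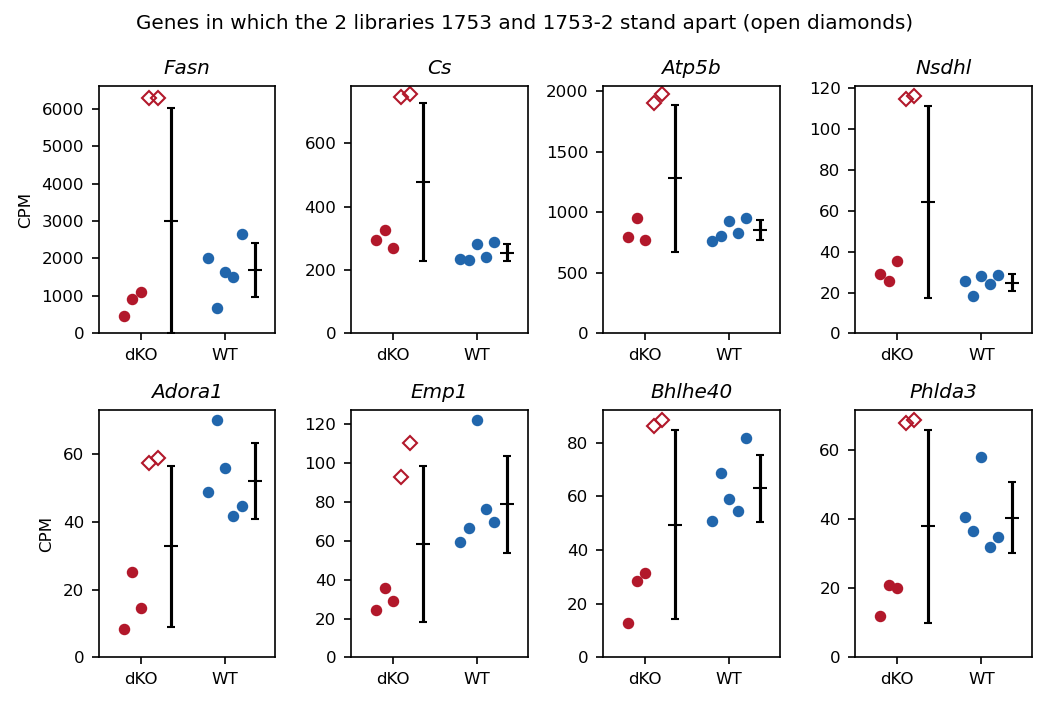
CPM of 8 genes in each of the 5 dKO (red) and 5 WT (blue) libraries, chosen because 1753 and 1753-2 (open diamonds) stand apart within dKO; bars are mean ± SD (n = 5). For Fasn, Cs, Atp5b and Nsdhl the open diamonds lie above all other libraries, and for Adora1, Emp1, Bhlhe40 and Phlda3 the other 3 dKO libraries lie below every WT library.

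Macrophage genes lay lower in dKO, with a similar median with and without the 1753 libraries. All 22 tested members of the list had negative fold changes (median log2 fold change -0.68), and 19 of 22 had without those libraries (median -0.66). Singly 0 passed with edgeR or voom, and 1 with DESeq2. At an unadjusted edgeR p under 0.05, 13 were lower, against 4.93% of all tested genes, and without the 1753 libraries 8 were, against 4.43%. Lyz2, lysozyme, was at 588, 402, 442, 300 and 293 CPM in dKO and at 629, 642, 566, 1072 and 620 CPM in WT (-0.80, SE 0.23, edgeR adjusted p = 0.239). The summed level of 6 macrophage markers, with none at 0 in any library, was 560 to 794 CPM in dKO and 796 to 1544 CPM in WT, and their part in other changes of this comparison was not tested.

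Lymphocyte genes followed the 1753 libraries instead. All 24 tested members had both of these libraries below the other 8, against 19.6% of all genes. The median log2 fold change was -0.43 with them and 0.20 without them. With them 0 genes were called by edgeR, DESeq2 or voom. At an unadjusted edgeR p under 0.05, 2 were lower, against 4.93% of all tested genes. The summed level of 8 B and T cell markers was 125 and 130 CPM in 1753 and 1753-2, 349 to 572 CPM in the other dKO mice and 357 to 665 CPM in WT. Cd22, a B cell receptor, was at 120, 65.4, 111, 29.0 and 28.0 CPM in dKO and at 64.8, 142, 90.5, 78.6 and 89.5 CPM in WT. The adipocyte marker sum ran the other way, at 7886 and 7803 CPM in 1753 and 1753-2 against 4651 to 5565 CPM in the other dKO mice. The part of cell makeup in the differences between these 2 libraries and the others was not tested.

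Adipocyte identity genes had 0 of 20 called by edgeR or voom and 1 by DESeq2, with a median of 0.23 and of -0.18 without the 1753 libraries. Adipoq, adiponectin, was at 380 ± 62.7 CPM in dKO and 423 ± 87.2 CPM in WT (adjusted p = 0.751 by edgeR), and the leptin gene Lep was at 129, 269, 120, 531 and 563 CPM in dKO and 314, 485, 460, 218 and 171 CPM in WT (adjusted p = 0.985). The list of the LKB1 complex and AMPK-related kinases had 0 of 21 called by any of edgeR, DESeq2 and voom, with an unadjusted p under 0.05 for 1 higher and 1 lower gene and a median of 0.12. Sik2, a salt-inducible kinase, was at 280 ± 54.9 CPM in dKO and 258 ± 41.9 CPM in WT (adjusted p = 0.799). The class IIa deacetylase, MEF2 and CRTC list had 0 of 13 called by the same 3 tools, 1 lower at an unadjusted p under 0.05 and a median of -0.21 (-0.05 without the 1753 libraries). Mef2c, a MEF2 factor, was at 141, 133, 121, 59.1 and 66.8 CPM in dKO and at 134, 160, 118, 143 and 118 CPM in WT. Of 18 cAMP-responsive and immediate early genes Ppargc1a was the 1 called by edgeR, which called 0.211% of all genes higher. Voom called 1 and DESeq2 2. The median was 0.07, and 0.29 without the 1753 libraries. By unadjusted edgeR p under 0.05, 4 were higher and 0 lower, against 6.37% and 4.93% of all genes. Leaving out the 1753 libraries, 6 were higher and 0 lower, against 2.95% and 4.43%.

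Extracellular matrix genes had a median of 0.00 with all libraries and of -0.44 without the 1753 libraries, where 25 of 27 fold changes were negative. With all 10 libraries 0 of these 27 were called by edgeR or voom and 1 by DESeq2. At an unadjusted edgeR p under 0.05, 4 were lower, against 4.93% of all tested genes. Leaving out the 1753 libraries, 0 were called by edgeR and 8 of 27 were lower by unadjusted p, against 4.43%. Circadian clock genes had medians of -0.24 and -0.55. With all libraries 0 of 17 were called by edgeR or voom and 1 by DESeq2, and Bhlhe40 was called without the 1753 libraries. By unadjusted edgeR p with all libraries 1 was higher and 3 were lower, against 6.37% and 4.93% of all tested genes. Leaving out the 1753 libraries, 0 of 17 were higher and 7 lower, against 2.95% and 4.43%. Levels of skeletal muscle genes spread widely within both groups. Myh4, a fast myosin, ran from 0 to 245 CPM in dKO and from 0.275 to 712 CPM in WT, and 0 of 10 were called or had an unadjusted p under 0.05. Endothelial genes had 0 of 17 called by edgeR, DESeq2 or voom, and 1 lower at an unadjusted p under 0.05. Their medians were -0.04 and -0.28 with and without the 1753 libraries. In the fit without those libraries 3 were lower by unadjusted edgeR p, against 4.43% of all genes.

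In the remaining lists the called genes were ones already described. Plin5 was the 1 called of 25 triglyceride storage and lipolysis genes (medians 0.27 with all libraries and -0.14 without the 1753 libraries), and Bckdhb the 1 called of 20 genes of branched-chain amino acid catabolism (0.26 and 0.03). Hp was the 1 called of 17 secreted factors (-0.03 and -0.35), Smoc2 of 17 preadipocyte and stromal genes (-0.12 and -0.24) and Mcm6 of 17 proliferation genes (-0.17 and -0.17). Of 24 detoxification and acute phase genes Pon1 was called higher and Hp and Gpx3 lower (-0.06 and -0.32). EdgeR called 0.211% of all tested genes higher and 0.0591% lower. In the order given, these lists had 4, 6, 1, 0, 0 and 6 higher genes by unadjusted edgeR p under 0.05. They had 0, 0, 4, 3, 3 and 6 lower ones. DESeq2 called 1, 3, 0, 0, 0 and 1 higher and 0, 0, 2, 2, 1 and 4 lower, against 123 of all 11847 tested genes. The lists for creatine and calcium cycling, smooth muscle, interferon response and red cells had 0 genes called by edgeR, DESeq2 or voom among 9, 10, 16 and 5 tested. At an unadjusted p under 0.05 they had 1, 0, 1 and 0 lower genes and 0 higher ones. Red cell genes had a median of 0.11 with all libraries and of -1.39 without the 1753 libraries. In the latter fit 4 of the 5 were lower by unadjusted edgeR p, against 4.43% of all genes. Their 3 markers summed to 85.0 and 116 CPM in 1753 and 1753-2. The sums were 25.3 to 37.2 CPM in the other dKO mice and 28.5 to 105 CPM in WT. In the stress response and Schwann cell lists edgeR and voom called 0 of 15 and 0 of 9 genes and DESeq2 1 each. By unadjusted edgeR p 4 stress genes were higher and 1 lower, and 1 Schwann cell gene was higher. Of all tested genes 6.37% were higher and 4.93% lower. No epithelial gene passed the expression filter with all 10 libraries, and the 5 epithelial markers summed to 2.59 to 43.0 CPM in dKO and 2.19 to 28.3 CPM in WT.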

How the data were processed

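RNA of inguinal white adipose tissue was purified with an RNeasy kit and sequenced from NuGEN Ovation libraries, per the labels' protocols. The submitters' processing notes name mm9 as the build and list Subread, featureCounts, FastQC and edgeR. Their versions, the strand setting and the handling of reads with several matches are not stated there, so overlapping genes may share reads. The deposited table holds raw counts per gene for 37991 genes (415 without a symbol), per the file headers, and these were used as deposited; 45 further per-sample columns were not used.

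Counts of the 5 dKO and 5 WT libraries were fitted in R 4.3.3 with edgeR 4.0.16 (minimum count 10, minimum total 15, TMM, robust quasi-likelihood fit, 8 residual degrees of freedom), which left 11847 genes, and again without 1753 and 1753-2, which left 12333. Tests were two-sided. The SE is the log2 fold change divided by the square root of F. DESeq2 1.42.0, limma 3.58.1 (voom with sample weights) and other settings were alternatives. The fit was tested on simulated counts, drawn independently and with the same spread for every library. Neither the likeness of 1753 and 1753-2 nor the wider spread within dKO was covered by that test. The series' design text states 5 mice in each group, but the labels do not say whether 1753 and 1753-2 are separate mice; if they are not, p-values with both are too small.

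Named genes were Stk11, Hdac4, 11 fixed genes, up to 15 largest rises and falls among called genes with a log2 CPM of at least 1, no overlap and no predicted symbol, 10 called in both fits by p, 10 called only without the 1753 libraries, and from each of 32 lists up to 4 called members plus up to 2 others; some are counted only. The groups, lists (745 entries, 732 matched) and rules were chosen with earlier results of these data known. Promoters are RefSeq's on GRCm38.p6; other coordinates are the deposited table's on mm9.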

Additional observations from a re-analysis of the deposited data

Results flagged for a closer look

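A library was marked here where its gap to the nearest of the other 4 in its group was over 0.71 of the group's range (Dixon's value for 5 samples), checked in 168 sets of 5 libraries; about 1 in 20 would be marked by chance. Of 9 marks, 3 were of dKO replicate 2, with Pfkfb3 at 674 CPM (nearest 430), Rgs5 at 377 CPM (nearest 287) and Pon1 at 15 CPM (nearest 10.8), and 1 was of dKO replicate 1, with Abcc9 at 70.4 CPM (nearest 86.7). In WT, replicate 1 stood apart in the muscle genes Myh4 (712 CPM, nearest 37.6) and Ttn (2542 CPM, nearest 250), replicate 3 in Emp1 (122 CPM, nearest 76.2) and Prdm16 (21.6 CPM, nearest 10.2) and replicate 4 in the macrophage gene Lyz2 (1072 CPM, nearest 642). The rule cannot mark 1753 and 1753-2, which lie close together.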

How the results depend on the processing

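The 32 called genes (25 higher, 7 lower) were the same 32 with median-of-ratios size factors and with the mitochondrial ribosomal RNAs left out. With no expression filter 58 genes were called (44 higher, 14 lower), with DESeq2 123 (79 and 44) and with voom 31 (23 and 8). With all 15 libraries in the fit 75 were called (52 and 23), with 1753 and 1753-2 summed 20 (18 and 2), and without both 34 (23 and 11). The fit with no filter and voom each kept 28 of the 32. With no filter Ucp1 (edgeR adjusted p = 0.0748), Ctse (0.0581), Nnat (0.133) and Gm20419 (0.0603) did not pass. Leaving out 1 library gave 5 to 55 calls, 4 to 44 higher and 1 to 11 lower, and 4 genes, Dio2, Ucp1, 1300015D01Rik and Gm15369, passed in all 10 such fits. Over the named genes and 18 alternatives no call changed direction, 148 values lost a call and 17 gained one. Library measures without 1753 and 1753-2 were chosen after seeing the data: the dKO minus WT difference was -473350 total counts and -275.7 genes with a count, in place of 2472630 and 545.4. No paired analysis was possible because the labels give no replicate numbers that groups share. In the shallower libraries a gene near 1 CPM rests on few counts.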

Other observations

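Among the called genes that the naming rule leaves out, named here after their values were seen, 1300015D01Rik (chromosome 2, 172936319 to 172958705) had one of the most stable differences. It was at 125, 119, 111, 148 and 142 CPM in dKO and at 44.4, 68.3, 57.6, 36.5 and 29.4 CPM in WT, 2.74-fold higher (edgeR adjusted p = 0.0130, and 0.0145 without 1753 and 1753-2), and it overlaps Ctcfl on the opposite strand. Slc25a25, a mitochondrial carrier of ATP-Mg and phosphate, was at 32.9, 24.8, 20.2, 29.0 and 20.8 CPM in dKO and at 14.4, 14.1, 10.2, 12.8 and 11.3 CPM in WT (2.04-fold, adjusted p = 0.0361, 0.0320 without those libraries and 0.0511 with them summed). It passed in 3 of the 10 fits that left out 1 library, those without dKO replicates 1, 3 or 1753-2 (adjusted p up to 0.117 in the others). Gm20419 and Gm962 were called with all 10 libraries (log2 fold change 1.44 and -1.62) and not without the 1753 libraries (adjusted p = 0.0753 and 0.143).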
